A study of Mus musculus with 4 samples.

Results

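The 9 genes described here carry out and control the step from arginine to the polyamines: Arg1, Arg2, Odc1, Amd1, Srm, Sms, Sat1, Oaz1 and Azin1. They were taken by symbol as a named pathway, and all 9 were found among the 30731 genes listed in every count file. RNA-seq was available for 3 kinds of mouse innate lymphoid cell, lymphocytes without a rearranged antigen receptor, in cells also used for maps of genome contacts. Wild-type natural killer (NK) cells, of group 1, came from the spleen of pooled C57BL/6 mice aged 8 to 12 weeks, with 1 library. Wild-type group 2 cells (ILC2) came from the bone marrow of pooled C57BL/6 mice of the same ages and were grown out with 10 ng/ml each of IL-25, IL-33, IL-2 and IL-7, with 1 library. For group 3 the study used MNK-3, an ILC3-like cell line that goes back to thymocytes of NIH-Swiss fetuses at day 15 and was kept in IL-7 and IL-15 at 10 ng/ml, with 2 libraries. Cell type therefore cannot be told apart from tissue and culture, nor, for MNK-3, from strain.

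Arginase splits arginine into urea and ornithine. Arg1 encodes the cytosolic enzyme, known as a product of ILC2 and of alternatively activated macrophages, and Arg2 the mitochondrial one. Ornithine decarboxylase, from Odc1, makes putrescine. S-adenosylmethionine decarboxylase, from Amd1, supplies the aminopropyl groups with which spermidine synthase (Srm) and spermine synthase (Sms) build the longer polyamines. Sat1 encodes the acetyltransferase that marks spermidine and spermine for export or breakdown. Antizyme, from Oaz1, sends ornithine decarboxylase to the proteasome, and the antizyme inhibitor from Azin1 releases it.

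Levels are given as CPM, a gene's reads per 1000000 reads in the 30731 shared genes, with the exact Poisson 95% interval of its count where 1 library is described. These intervals cover counting error only, since reads without molecular identifiers are not independent molecules. Reads in the shared genes came to 4637812 in NK, 9298162 in ILC2, and 25617762 and 15177345 in MNK-3 replicates 1 and 2. All 6 NK markers reached 10 CPM in the NK library, and 5 of 6 ILC2 markers did so in ILC2 (Il17rb, a chain of the IL-25 receptor, was at 3.98 CPM). In each MNK-3 library 5 of 6 group 3 markers did, with Il22 at 7.73 and 8.76 CPM. Some markers also reached 10 CPM in other cells. These were 3 group 3 markers in NK and 3 in ILC2, and 3 NK markers in each MNK-3 library. For ILC2 markers it was 1 in NK, with 4 and 2 in MNK-3 replicates 1 and 2. The summed CPM of each list was highest in its own cells. MNK-3 replicate 1 stood apart, with 75.8% of its reads in no gene against 23.1% to 47.1% elsewhere. It held a count in 95.6% of shared genes against 69.6% to 76.0%, and genes under 1 CPM in replicate 2 lay 1.90 higher in replicate 1 on the log2 scale (median of 17913 genes). Over 4975 genes without a count in the other 3 libraries its median level was 0.46 CPM per kilobase of exon. Nothing says that the MNK-3 libraries are separate cultures, so p-values measure only the spread between libraries, which may be technical.

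Arg1 (ENSMUSG00000019987, chromosome 10, 24915221 to 24927484, minus strand, GRCm38) was the member that differed most between cell types. It had 68.3 CPM in ILC2 (interval 63.1 to 73.8, 635 reads), 2.59 CPM in NK (1.34 to 4.52, 12 reads), and 12.6 and 0.72 CPM in MNK-3 replicates 1 and 2 (324 and 11 reads). The ILC2 library was the high one, and the NK library lay between the MNK-3 libraries. In bulk RNA, a larger share of cells with a transcript and more of it per cell cannot be told apart, here and below. The ILC2 level was 26.4-fold that in NK (interval 15 to 51, counting error only), and the MNK-3 libraries held 0.185 and 0.011 of the ILC2 level. In the test across all genes (limma voom, all 4 libraries, Benjamini-Hochberg adjustment) Arg1 passed in no comparison. Its log2 fold was 4.66 for ILC2 over NK (limma voom, SE 4.80, adjusted p = 0.999) and -3.79 for MNK-3 over ILC2 (limma voom, SE 1.59, adjusted p = 0.305).

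The 17.5-fold gap in Arg1 between the MNK-3 libraries was the widest of the 9 members, and the next was the 4.74-fold gap in Arg2. The background of replicate 1 amounts to 26.3 reads over the 2228 exon bases of Arg1, or 8.11% of its 324 reads. No 38-base stretch of Arg1 transcripts, the read length, occurs in a transcript of another gene. MNK-3 over NK thus had a log2 ratio of 2.09 from replicate 1 and of -1.33 from replicate 2, and the libraries give no common direction. Of 14 macrophage and neutrophil markers, none reached 10 CPM in ILC2, where Arg1 stood at 68.3 CPM. Cd68 was the highest of them at 7.64 CPM (7.55 CPM in NK), followed by Adgre1 at 7.21 CPM (0.65 CPM in NK) and Chil3 at 3.76 CPM (0 in NK). S100a8 and Retnla were listed at 0, and the 14 summed to 26.2 CPM. Their sum was 254 CPM in NK, 233 CPM of it from Itgam, an integrin chain that NK cells also carry, and 55.3 and 3.76 CPM in MNK-3 replicates 1 and 2. Among markers of other cells, the B cell gene Cd79b stood at 37.6 CPM in ILC2 against 0.22 CPM in NK, while the other 4 B cell markers were at 1.29 CPM or less there and Ms4a1 was listed at 0. All 5 summed to 33.7 and 1.58 CPM in MNK-3 replicates 1 and 2. T cell markers, 6 in all, summed to 34.9 CPM in NK and 12.0 CPM in ILC2, with 110.2 and 21.5 CPM in the MNK-3 libraries. Cd3e was at 30.4 and 0.066 CPM in MNK-3 replicates 1 and 2. Trac went the other way, at 11.9 and 16.4 CPM there, against 3.45 CPM in NK and 0.22 CPM in ILC2. The 7 markers of mast cells, basophils and eosinophils summed to 5.39 CPM in NK and 4.09 CPM in ILC2, with 25.3 and 1.19 CPM in the MNK-3 libraries. In the sum of each of these lists replicate 1 of MNK-3 was above replicate 2, as it was for Arg1. The part of any such cells in the Arg1 values was not tested.

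Arg2 (ENSMUSG00000021125, chromosome 12, 79130777 to 79156301, plus strand) was low in every library. It had 1.94 CPM in NK (9 reads), 0.22 CPM in ILC2 (2 reads) and 3.44 and 0.72 CPM in MNK-3 (88 and 11 reads), and 19.1% of the replicate 1 reads equal the background there. Its exons overlap those of Vti1b and Gm48780 on the other strand by 285 and 116 bases, and the strand setting used in counting is not given in the sources used here, so some reads may belong to those genes. The ILC2 level was 0.111 of that in NK (interval 0.012 to 0.536), and the MNK-3 libraries lay on both sides of NK. Per kilobase of exon, the ratio of Arg1 to Arg2 within a library, which no library scaling can change, was 203.5 in ILC2 (56.1 to 1684), 0.855 in NK (0.33 to 2.30), and 2.36 and 0.641 in MNK-3. ILC2 was the one library in which Arg1 exceeded Arg2 by 10-fold or more.

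**Figure D1:**
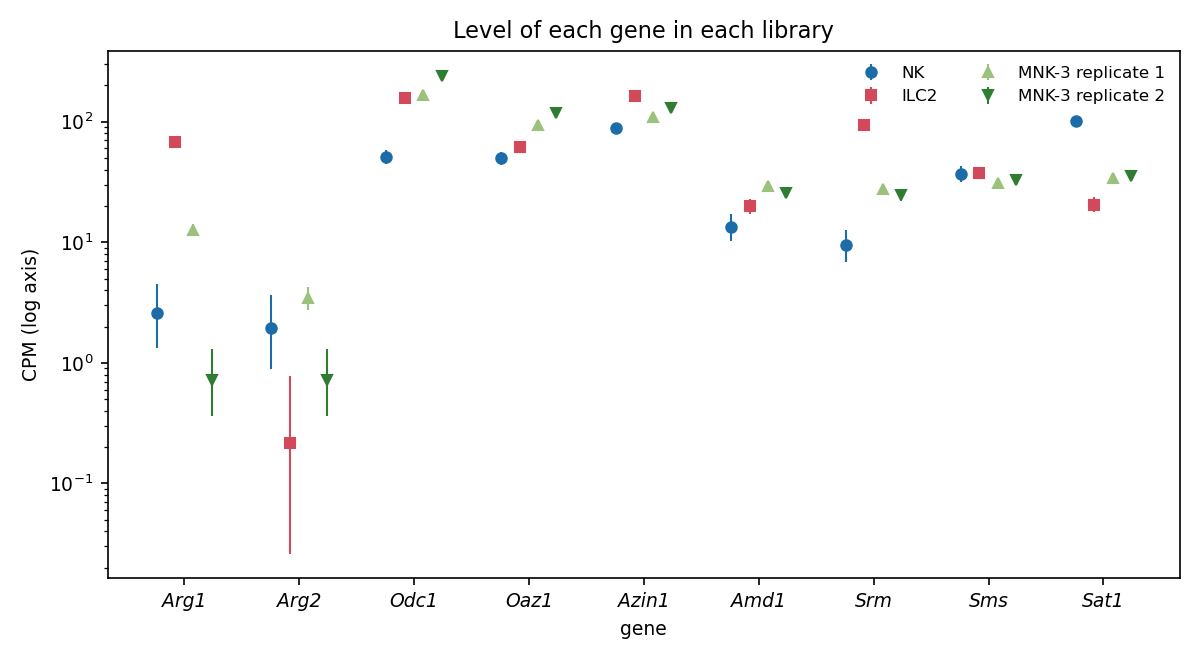
Level of each of the 9 genes in each library, in CPM on a log axis; points are libraries and bars are exact Poisson 95% intervals, hidden by the point where short. ILC2 is highest for Arg1 (68.3 CPM) and Srm (94.2 CPM), NK is highest for Sat1 (100.5 CPM), and Sms lies between 31.0 and 37.7 CPM throughout.

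Odc1 (ENSMUSG00000011179, chromosome 12, 17544794 to 17551505, plus strand), which encodes the decarboxylase that opens polyamine synthesis, was lowest in NK. Its level was 51.1 CPM in NK (44.8 to 58.0), 158 CPM in ILC2 (150.3 to 166.6), and 168 and 238 CPM in MNK-3 replicates 1 and 2. The NK library lay below all 3 others, while the ILC2 interval reached into that of MNK-3 replicate 1. Odc1 stood 3.10-fold higher in ILC2 than in NK (2.7 to 3.6), and 3.29-fold and 4.65-fold higher in the MNK-3 libraries. The log2 fold was 1.63 for ILC2 over NK (limma voom, SE 0.83, adjusted p = 0.999) and 1.93 for MNK-3 over NK (limma voom, SE 0.79, adjusted p = 0.395), and neither passed. MNK-3 over ILC2 gave 0.30, with an interval of -0.35 to 0.95. Of the 38-base stretches in Odc1 transcripts, 28.5% also occur in other genes, mostly processed pseudogenes. Of these genes, 19 were listed in the NK and ILC2 files alone, where they held 28 and 40 reads beside 237 and 1472 in Odc1.

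The transcript of antizyme carries a stop codon inside its coding sequence that ribosomes pass by a frameshift when polyamines are high, which makes Oaz1 the sensor of the pathway. The site is shown because the RNA level measured here says nothing of how often it is passed. It lies on chromosome 10 around position 80828295 (GRCm38, plus strand), after 68 codons of the annotated reading frame. The line is 5′ to 3′ from the GENCODE transcript, with the last sense codon and the stop in capitals.

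Oaz1 frameshift site: cctcggtggtgcTCCTGAtgtccctcac

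Oaz1 (ENSMUSG00000035242, chromosome 10, 80826656 to 80829290, plus strand) followed the order NK, ILC2, MNK-3. It stood at 49.6 CPM in NK (43.4 to 56.4), 61.5 CPM in ILC2 (56.6 to 66.8), and 94.3 and 118 CPM in the MNK-3 libraries. The NK and ILC2 intervals lie next to each other without overlap, and both MNK-3 libraries lay above them. The ILC2 to NK ratio was 1.24 (1.06 to 1.45), and MNK-3 was 1.90-fold and 2.38-fold above NK, with a log2 fold of 1.06 (limma voom, SE 0.81, adjusted p = 1.00). Oaz1 shares 22.9% of its 38-base stretches with other genes, nearly all with the pseudogene Oaz1-ps, and the 2 sharing genes, listed in the NK and ILC2 files alone, held 6 and 36 reads there beside 230 and 572 in Oaz1.

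Azin1 (ENSMUSG00000037458, chromosome 15, 38487427 to 38519266, minus strand), whose product binds antizyme in place of the decarboxylase, was highest in ILC2. Its levels were 89.1 CPM in NK (80.7 to 98.1), 163 CPM in ILC2 (154.6 to 171.1), and 108 and 129.8 CPM in MNK-3. All intervals were apart, with both MNK-3 libraries between the primary cells. Azin1 was 1.83-fold higher in ILC2 than in NK (1.64 to 2.04), a log2 fold of 0.87 with a model interval of -0.30 to 2.04. Its exons overlap 358 bases of the antisense gene Gm49077.

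The balance of these 3 genes differed between the libraries in ways that library scaling cannot alter. NK and ILC2 have 1 library each, and the intervals cover counting error only. Per kilobase of exon, Odc1 to Oaz1 was lowest in NK, at 0.774 (0.64 to 0.93). It was 1.93 in ILC2 (1.75 to 2.13), and 1.34 and 1.51 in MNK-3. The side of 1 on which NK falls depends on the exon lengths used (3405 bases for Odc1 and 2558 for Oaz1). By reads, NK held 237 for Odc1 and 230 for Oaz1. Azin1 to Oaz1 was 1.08 in ILC2 (0.98 to 1.19), 0.734 in NK (0.62 to 0.87), and 0.470 and 0.450 in MNK-3. MNK-3 thus had the least Azin1 per Oaz1 transcript, and its 2 libraries had overlapping intervals. This ratio leaves out Azin2, the second antizyme inhibitor gene, and Oaz2, another antizyme gene. Azin2 went the other way, with 42.0 and 43.6 CPM in MNK-3 against 6.25 CPM in NK and 3.66 CPM in ILC2. The balance of all inhibitor to all antizyme transcripts was not tested. Odc1 to Azin1 was 1.05 in NK, 1.79 in ILC2 and 2.85 and 3.36 in MNK-3, and the intervals of the 3 cell types did not overlap. The 2 MNK-3 libraries were themselves apart for Odc1 to Azin1 (2.71 to 2.99 and 3.18 to 3.56). They were also apart for Odc1 to Oaz1 (1.27 to 1.41 and 1.43 to 1.60), so libraries can differ beyond these intervals.

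Amd1 (ENSMUSG00000075232, chromosome 10, 40287458 to 40302186, minus strand) was highest in the MNK-3 libraries. It had 13.4 CPM in NK (10.2 to 17.1), 19.9 CPM in ILC2 (17.1 to 23.0), and 29.2 and 25.7 CPM in MNK-3. Both MNK-3 libraries lay above ILC2, whose interval touched that of NK. These counts are uncertain, because 81.0% of the 38-base stretches of Amd1 transcripts occur in other genes, above all in Amd2, a near-identical copy that had at most 1.01 CPM in any library. The 6 sharing pseudogenes listed for NK and ILC2 alone held 4 and 3 reads. No comparison passed the test, with a log2 fold of 1.05 for MNK-3 over NK (model interval -3.33 to 5.42).

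Srm (ENSMUSG00000006442, chromosome 4, 148591503 to 148594993, plus strand), the spermidine synthase gene, was the one member that passed the test. It had 9.49 CPM in NK (6.89 to 12.7, 44 reads), 94.2 CPM in ILC2 (88.1 to 100.7, 876 reads), and 27.8 and 24.6 CPM in MNK-3 (712 and 373 reads). All 3 cell types were apart, with ILC2 far above both others, and the MNK-3 libraries agreed closely at 26.2 ± 2.27 CPM (SD, n = 2). Srm was lower in MNK-3 than in ILC2 by a log2 fold of -1.83 (limma voom, SE 0.48, adjusted p = 0.00757), that is 0.295 and 0.261 of the ILC2 level in replicates 1 and 2. The call was lost under each of the 3 other library scalings (limma voom adjusted p = 0.717, 1.00 and 1.00) and without the filter on low counts (limma voom adjusted p = 0.262). Over NK, Srm was 9.93-fold higher in ILC2 (7.33 to 13.8) and 2.93-fold and 2.59-fold higher in MNK-3. Neither passed with limma voom, where the SE was 2.76 on a log2 fold of 3.30 for ILC2. That SE comes from a spread shared by genes of like level, which rests on the MNK-3 pair. It is not the counting error of the 44 NK reads alone.

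Sms (ENSMUSG00000071708, chromosome X, 157443855 to 157492287, minus strand), the spermine synthase gene, was nearly level. It had 36.7 CPM in NK (31.4 to 42.6), 37.7 CPM in ILC2 (33.9 to 41.9), and 31.0 and 32.7 CPM in MNK-3 (31.9 ± 1.24, SD, n = 2). NK and ILC2 did not differ beyond their intervals, and the NK interval reached into both MNK-3 intervals, while that of ILC2 lay just above that of MNK-3 replicate 1. Sms shares stretches of 38 bases with many genes, among them its pseudogene Sms-ps, and 50 of these were listed in some files only. Of them, 48 were listed for NK and ILC2, with 147 and 187 reads beside 170 and 351 in Sms, and 2 for MNK-3, with 552 and 12 reads beside 794 and 497. Reads shared with those genes could have been counted differently in the files, and their part in the level order of Sms was not tested. The ratio of ILC2 to NK was 1.03 (0.86 to 1.24, counting error only). The model interval of that difference, -2.26 to 2.34 on the log2 scale, is wide, so a difference of 2-fold is not excluded by the test. Because Sms was level, the within-library ratio of Srm to Sms repeated the Srm pattern: 0.973 in NK (0.68 to 1.36), 9.38 in ILC2 (8.28 to 10.6), and 3.37 and 2.82 in MNK-3.

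Sat1 (ENSMUSG00000025283, chromosome X, 155213132 to 155216449, minus strand) went the other way. It had 100.5 CPM in NK (91.6 to 110.0), 20.5 CPM in ILC2 (17.7 to 23.7), and 34.5 and 35.3 CPM in MNK-3 (34.9 ± 0.60, SD, n = 2). NK was the high library, and both MNK-3 libraries lay above ILC2. The level in ILC2 was 0.204 of that in NK (0.172 to 0.242), and in MNK-3 it was 0.343 and 0.351. The log2 fold was -2.29 for ILC2 over NK (limma voom, SE 1.05, adjusted p = 0.844) and -1.53 for MNK-3 over NK (limma voom, SE 0.56, adjusted p = 0.205). Per kilobase of exon, Sat1 to Sms was 5.94 in NK (4.97 to 7.12), 1.18 in ILC2 (0.98 to 1.41), and 2.41 and 2.34 in MNK-3. Sat1 was thus highest, relative to the last synthase, in the cells with the least Odc1 and Srm. This does not hold for polyamine breakdown as a whole. The oxidase genes Smox and Paox, described below, were lowest in NK, at 13.6 and 0.65 CPM.

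**Figure D2:**
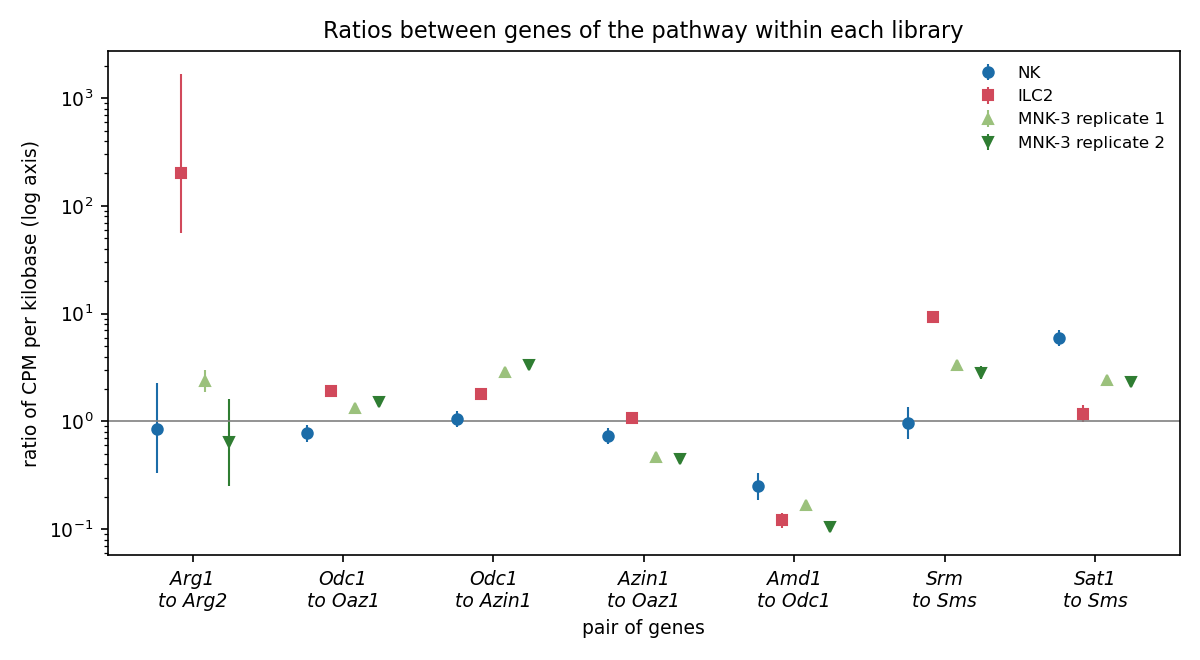
Ratios between pairs of the 9 genes within each library, as CPM per kilobase of exon on a log axis; bars are exact 95% counting intervals and the line marks equal levels. Srm to Sms runs from 0.973 in NK to 9.38 in ILC2, and Sat1 to Sms from 1.18 in ILC2 to 5.94 in NK.

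Odc1 was lowest and Sat1 highest in NK, and the 100 bases before their first annotated start are shown as an example of such a pair with RefSeq windows (RefSeq sequence, GRCm38.p6, 5′ to 3′ on the gene's strand). Capitals mark GC boxes, GGGCGG on either strand (CCGCCC read on the other). The Odc1 window is chr12:17544694-17544793 on the plus strand and the Sat1 window chrX:155216450-155216549 on the minus strand.

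Odc1: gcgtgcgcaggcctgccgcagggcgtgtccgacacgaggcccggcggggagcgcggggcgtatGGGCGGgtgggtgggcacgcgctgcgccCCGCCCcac

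Sat1: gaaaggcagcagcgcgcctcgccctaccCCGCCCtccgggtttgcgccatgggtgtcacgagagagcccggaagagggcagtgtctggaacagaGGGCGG

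Each window holds the motif once in each orientation. Over the 300-base windows of RefSeq (250 before to 50 after a start), Odc1 had 4 and Sat1 had 2 GC boxes, Amd1 had 1, Oaz1 none, and Sms 0 and 4 in its 2 windows, against 35.7% of 32851 windows with at least 1. The E-box CACGTG, the motif that Myc and Max bind, was in 1 of the Sms windows and in no window of the other 4 genes, against 7.15% of all windows. Sequence outside these windows, introns among it, was not searched. These matches are letters in a window, and no binding was measured. RefSeq windows were found for 5 of the 9 genes.

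The 9 genes were then read against all genes in each comparison. A gene was counted by size where its log2(CPM + 0.5) differed by 2-fold or more, in both MNK-3 libraries where MNK-3 was compared, with at least 10 CPM in every library of the higher group. In ILC2 over NK, 8 members reached 10 CPM in either group. Arg1, Odc1 and Srm were at least 2-fold higher, where 22.1% of 9795 genes were, and Sat1 was at least 2-fold lower, where 16.8% were. The median log2 ratio was 0.56 over the 9 members, -0.26 over the 25283 genes tested and 0.07 over the genes that reached 10 CPM. By limma voom 1.3% of genes passed (121 higher, 207 lower) and no member did, with 2 members at an unadjusted p under 0.05, where 4.11% of all genes were. Limma trend called 3 members (Odc1, Srm and Sat1) and 8.03% of all genes.

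In MNK-3 over NK, 7 members reached 10 CPM. Odc1 and Srm were at least 2-fold higher in both libraries, against 25.7% of 10144 genes, and Sat1 at least 2-fold lower, against 9.48%. The member median was 1.01, that of all genes 0.88 and that of the genes reaching 10 CPM 0.45. No member passed among the 2.33% of genes called by limma voom (73 higher, 517 lower). Again 2 members had an unadjusted p under 0.05, as did 5.19% of all genes, and limma trend called 4 members (Odc1, Oaz1, Srm and Sat1) and 12.1% of all genes.

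In MNK-3 over ILC2, 8 members reached 10 CPM and none was at least 2-fold higher, against 19.5% of 10022 genes. Arg1 and Srm were at least 2-fold lower, against 8.93%. The member median of 0.36 was close to the 0.37 of the genes that reached 10 CPM. Over all genes tested the median was 1.12, and 0.00 without MNK-3 replicate 1. Srm was the 1 member among the 3.27% of genes called (228 higher, 600 lower). With trimmed means of M values as the library scaling, the called genes were 0 higher and 0 lower for ILC2 over NK, 2 and 122 for MNK-3 over NK, and 0 and 75 for MNK-3 over ILC2. The comparisons share libraries, so their values are not independent of each other.

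**Figure D3:**
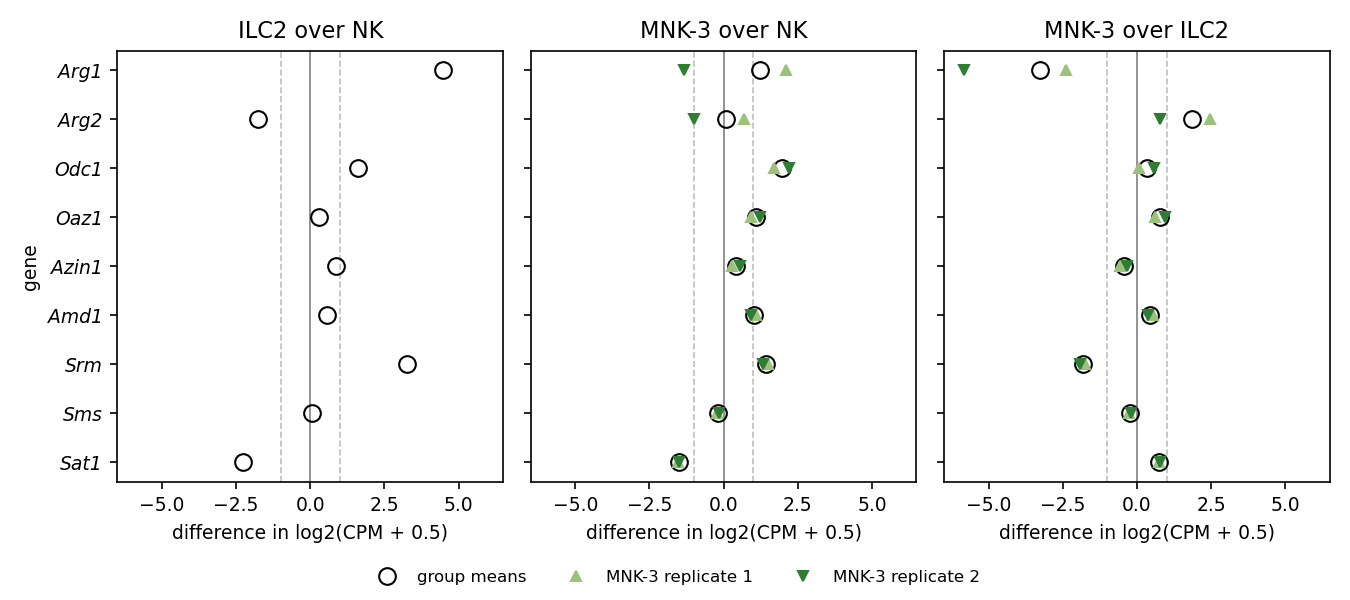
Difference of each of the 9 genes in the 3 comparisons, in log2(CPM + 0.5); circles compare group means, triangles the single MNK-3 libraries, and dashed lines mark 2-fold. The MNK-3 libraries fall on opposite sides of NK for Arg1 (2.09 and -1.33) and for Arg2 (0.69 and -0.995), and close together for Srm (1.502 and 1.33) and Sat1 (-1.53 and -1.50).

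Polyamine genes beyond the 9 came from a list of 11, all of them measured. The one gene in it that passed the test was Atp13a3, which encodes a transporter that takes up polyamines from endosomes. Atp13a3 had 996 CPM in ILC2 and 111 CPM in NK, with 172 and 203 CPM in the MNK-3 libraries, so that ILC2 was high and the other 3 libraries lay within 2-fold of each other. It rose in ILC2 over NK by a log2 fold of 3.16 (limma voom, SE 0.49, adjusted p = 7.69e-08) and was lower in MNK-3 than in ILC2 by -2.43 (limma voom, SE 0.23, adjusted p = 1.54e-22). The first call was lost under all 3 other library scalings and the second under 2 of them, with the same sign in every fit.

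Smox, the spermine oxidase gene, was at 92.3 CPM in ILC2, with 85.6 and 108 CPM in the MNK-3 libraries, against 13.6 CPM in NK. Azin2, the second antizyme inhibitor gene, was at 42.0 and 43.6 CPM in MNK-3, against 6.25 CPM in NK and 3.66 CPM in ILC2. Paox, the oxidase of acetylated polyamines, was at 29.98 and 18.9 CPM in MNK-3, against 0.65 and 6.78 CPM, though 31.2% of its 38-base stretches occur in other genes. Smox was thus low in NK alone, and Azin2 and Paox were high in the line. Atp13a2, another polyamine transporter gene, had 68.4 CPM in NK and 65.3 CPM in ILC2, with 44.2 and 5.80 CPM in the MNK-3 libraries, so that the MNK-3 libraries were far apart. Of the 11 genes, 2 were at least 2-fold higher in ILC2 than in NK (1 called), 3 were higher in MNK-3 than in NK (none called), and 2 were higher and 1 lower in MNK-3 than in ILC2 (the lower one called). Over all genes that reached 10 CPM, 22.1%, 25.7% and 19.5% were higher and 8.93% lower in MNK-3 than in ILC2, and 1.3%, 2.33% and 3.27% of all genes tested were called. The medians of the list were 0.00, 1.12 and 1.12, beside -0.26, 0.88 and 1.12 over all genes tested. By this rule none was lower than in NK in either comparison, beside 16.8% and 9.48% of all genes that reached 10 CPM. Of the 11 genes, 6 reached 10 CPM in at least 1 library, so the shares by size have a narrower base than the list.

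Spermidine also donates the group that turns eIF5A, a translation factor, into its hypusine form. Eif5a had 621 CPM in ILC2 and 231 CPM in NK, with 217 and 291 CPM in the MNK-3 libraries. ILC2 stood above the rest, by a log2 fold of 1.43 over NK (limma voom, SE 0.39, adjusted p = 0.0206), and MNK-3 over ILC2 was -1.33 (limma voom, SE 0.24, adjusted p = 3.34e-06). Scaling by trimmed means of M values or by median-of-ratios ended both calls, and the first was also lost with abundant-gene factors and without the filter on low counts. Of the 4 genes, 1 (Eif5a) was at least 2-fold higher in ILC2 than in NK and 1 was higher in MNK-3 than in NK. Again 1 (Eif5a) was lower in MNK-3 than in ILC2. Of all genes that reached 10 CPM, 22.1%, 25.7% and 8.93% were so. In the comparisons where Eif5a passed, 1.3% and 3.27% of all genes tested were called. The medians were 1.13, 0.58 and -0.11, beside -0.26, 0.88 and 1.12. The other 3 genes did not pass: Eif5a2 had 8.19 CPM in NK and 14.4 to 20.0 CPM elsewhere, and Dohh, the second hypusine enzyme gene, had 2.37 CPM in NK and 7.42 CPM in ILC2, with 17.5 and 10.0 CPM in the MNK-3 libraries.

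The methionine cycle feeds Amd1 with S-adenosylmethionine and takes back the thio by-product of both synthases. Of its 12 genes, 11 reached 10 CPM in at least 1 library. By size, 2 were at least 2-fold higher in ILC2 than in NK and 6 in MNK-3 than in NK, with none called, and medians of 0.78 and 1.35. Over all genes that reached 10 CPM the shares were 22.1% and 25.7%. Of all genes tested 1.3% and 2.33% were called, with medians of -0.26 and 0.88. In MNK-3 over ILC2, 1 was higher and 2 were lower, beside 19.5% and 8.93% of all genes that reached 10 CPM. The list median was 0.09, beside 1.12 over all genes tested. Both lower genes were called, as were 3.27% of all genes tested. They were Ahcy, which clears S-adenosylhomocysteine, and Mtr, methionine synthase. Ahcy had 71.4 CPM in ILC2 and 7.12 CPM in NK, with 23.2 and 16.3 CPM in the MNK-3 libraries (limma voom log2 fold -1.79, SE 0.56, adjusted p = 0.0417), a pattern near that of Srm, but 70.4% of its 38-base stretches occur in other genes. Mtr had 108 CPM in ILC2 and 77.0 CPM in NK, with 51.3 and 25.2 CPM in the MNK-3 libraries (limma voom log2 fold -1.46, SE 0.44, adjusted p = 0.0313). Both calls were lost under the 3 other scalings and without the filter on low counts, and that of Ahcy also with only the compared libraries in the fit. Apip, of the salvage route, was at 3.23 CPM in NK and 8.71 to 16.4 CPM elsewhere, and Ahcyl2 was far apart in the MNK-3 libraries (143 and 20.3 CPM).

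Around arginine itself, none of 19 genes for its uptake and other uses passed in any comparison, beside 1.3%, 2.33% and 3.27% of all genes tested. Of the 19, 11 reached 10 CPM in at least 1 library. By size, 6 were at least 2-fold higher in ILC2 than in NK and 4 in MNK-3 than in NK, with none lower. Of all genes that reached 10 CPM, 22.1% and 25.7% were higher and 16.8% and 9.48% lower. These shares leave out genes below 10 CPM, which the list of 19 holds. The medians were 0.74 and 1.07 beside -0.26 and 0.88. MNK-3 over ILC2 had 1 higher and 2 lower, beside 19.5% and 8.93% of all genes that reached 10 CPM, with a median of 0.63 beside 1.12. Among those with the widest range, Ass1, which rebuilds arginine from citrulline, had 12.8 CPM in ILC2 and 0.86 CPM in NK, with 4.29 and 0.53 CPM in the MNK-3 libraries, and Gatm, which uses arginine to make a creatine precursor, had 13.1 CPM in ILC2 and 0.22 CPM in NK, with 2.38 and 0.20 CPM in the MNK-3 libraries. Both were thus highest in ILC2, as Arg1 was, with MNK-3 replicate 1 above replicate 2. Nos1 was above 10 CPM in MNK-3 replicate 1 alone (20.3 CPM against 0.20 CPM in replicate 2).

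Ornithine can also leave toward proline. Of 6 measured proline genes, 2 were at least 2-fold higher in ILC2 than in NK and 3 in MNK-3 than in NK, beside 22.1% and 25.7% of all genes that reached 10 CPM. None was called, beside 1.3% and 2.33% of all genes tested, and the medians were 0.85 and 1.55 beside -0.26 and 0.88. Pycr1, a reductase of the last step, had 1.94 CPM in NK and 8.28 CPM in ILC2, while MNK-3 had 31.1 CPM in replicate 1 and 14.6 CPM in replicate 2. It was lowest in NK. Prodh, which breaks proline down, split the MNK-3 libraries at 24.1 and 0.86 CPM.

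Among 7 factors known to act on these genes, Myc, an activator of Odc1, had 229 CPM in ILC2 and 62.3 CPM in NK, with 50.7 and 19.5 CPM in the MNK-3 libraries. It was lower in MNK-3 than in ILC2 by a log2 fold of -2.70 (limma voom, SE 0.39, adjusted p = 1.61e-09), a call that was lost under the 3 other scalings. Srm and Myc were both highest in ILC2, but Srm was higher in both MNK-3 libraries than in NK, where Myc was lower. Odc1 did not follow Myc: it was lowest in NK (51.1 CPM) and highest in MNK-3 replicate 2 (238 CPM), the library with the least Myc. Gata3, the group 2 regulator, had 1015 CPM in ILC2 and 93.0 to 126.6 CPM elsewhere, and Rora had 36.2 CPM in NK and 497 CPM in ILC2, with 1293 and 1841 CPM in the MNK-3 libraries. In ILC2 over NK the log2 fold was 3.00 for Gata3 and 3.77 for Rora, in MNK-3 over ILC2 it was -3.41 and 1.62, and Rora had 5.39 in MNK-3 over NK, all past the limma voom threshold. Each of these calls was lost under 2 or 3 of the other scalings. In this list 3 genes were at least 2-fold higher and 1 lower in ILC2 than in NK, 2 were higher in MNK-3 than in NK, and 2 were higher and 2 lower in MNK-3 than in ILC2. Beside these, 22.1% and 16.8%, 25.7%, and 19.5% and 8.93% of all genes that reached 10 CPM were so. The medians were -0.06, -0.41 and 0.15, beside -0.26, 0.88 and 1.12.

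**Figure D4:**
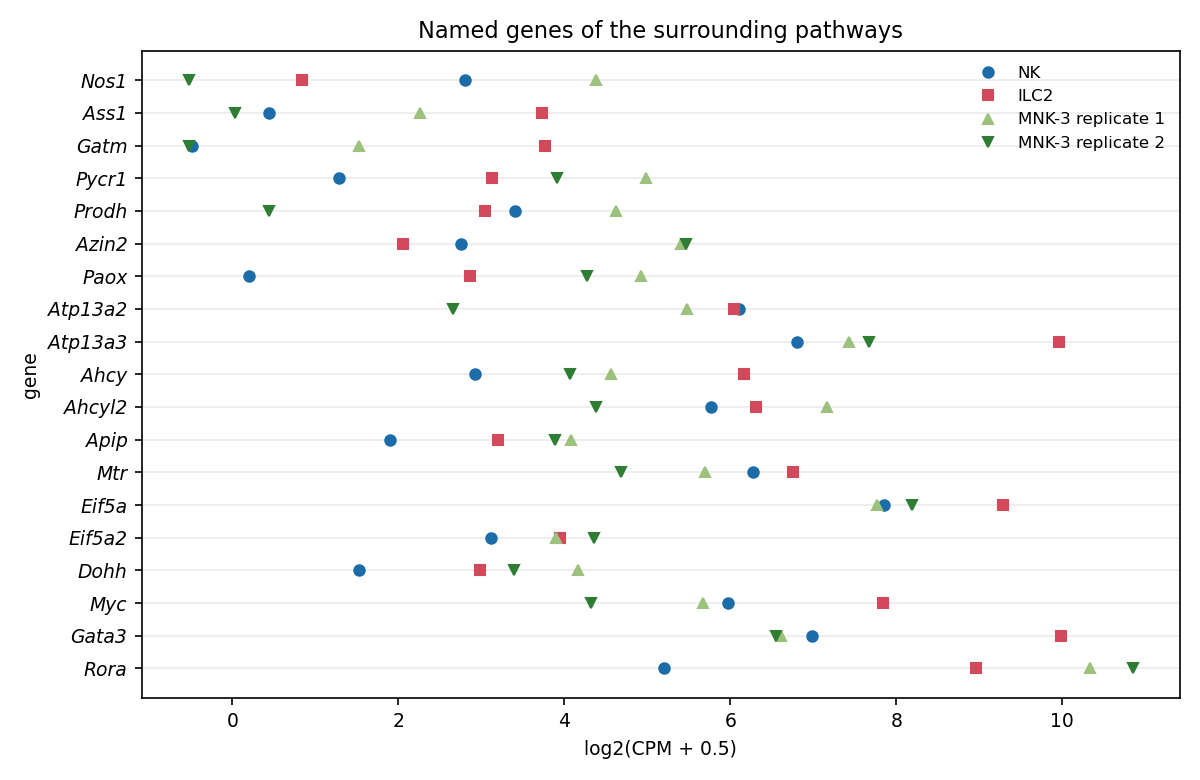
Level of the named genes of the surrounding pathways in each library, in log2(CPM + 0.5); each point is 1 library. ILC2 stands to the right of the other libraries for Atp13a3 (996 CPM), Eif5a (621 CPM) and Myc (229 CPM), and the MNK-3 libraries lie far apart for Nos1, Prodh, Atp13a2 and Ahcyl2.

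The genes whose pattern over the 4 libraries was nearest to that of Arg1 and of Odc1 were found by the Euclidean distance between centred log2(CPM + 0.5) profiles, among 13151 genes with at least 10 CPM in some library. For Arg1 these were Gm44851, Enah, Ehf, Eng and Ptgs2, at distances of 0.22 to 0.54. Enah, an actin regulator, had 199.9 CPM in ILC2 and 6.90 CPM in NK, with 39.6 and 3.29 CPM in the MNK-3 libraries. Ptgs2, which encodes an inducible cyclooxygenase, had 29.1 CPM in ILC2, 1.51 CPM in NK, 5.23 CPM in MNK-3 replicate 1 and no count in replicate 2. For Odc1 they were Hist1h3a, Syce2, Lonp1, Clip3 and Pi4k2a, at distances of 0.05 to 0.20. Lonp1, a mitochondrial protease gene, had 82.8 CPM in NK and 238 CPM in ILC2, with 248 and 325 CPM in the MNK-3 libraries. These genes were picked for their likeness over the same 4 libraries, so their shared order is no further result.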

How the data were processed

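Whole-number read counts per gene were deposited by the authors, 1 table per library. Per the labels' protocols, total RNA went through a stranded low-input total RNA kit and was read as pairs of 38 bases. Per the submitters' processing notes, STAR 2.7.8a and HTSeq were used with mm10 (GRCm38); the strand setting and the handling of multiply mapped reads are not given in the sources used here. Rows naming no gene were left out; they held 49.2% (NK), 25.9% (ILC2), 76.5% (MNK-3 replicate 1) and 26.6% (MNK-3 replicate 2) of the reads. The NK and ILC2 files listed 53465 genes and the MNK-3 files 31053, so the gene set used in counting cannot be told apart from the cell type in any comparison with MNK-3. The 30731 genes listed in all 4 were used, and CPM were computed over their total, as the choice of these 9 genes laid down. Symbols came from the reference gene name table (30615 matched) and exon lengths, locations and shared 38-base stretches from GENCODE M21.

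The main test was limma voom (limma 3.58.1, R 4.3.3), two-sided, on all 4 libraries in 3 groups, with genes kept if at least 1 library reached the CPM of 10 reads at the median library size and the total was 15 or more, and Benjamini-Hochberg adjustment over 25283 genes, called under 0.05. It has 1 residual degree of freedom, the MNK-3 pair, and its prior degrees of freedom were infinite, so each SE comes from a spread shared by genes of like level, and the lone NK and ILC2 libraries are assumed to vary as MNK-3 did. The MNK-3 libraries differed beyond sampling noise (chi-square over degrees of freedom 69.7). The test was also run on simulated negative binomial counts with a fixed dispersion of 0.05, with 200 genes among 22225 changed, in ILC2 alone. For ILC2 over NK it recovered 1.49%, 50.7% and 90.9% of 2-, 4- and 8-fold changes (57 unchanged genes called). For MNK-3 over ILC2 it recovered 5.97%, 65.7% and 93.9% (18 called). The simulation did not include the background of MNK-3 replicate 1, and its dispersion was set rather than estimated. These shares are therefore not the power of the test on the real libraries. The members, gene lists and main scaling were chosen with earlier results of these data known. All 9 members are named; from each list, its called genes and the 3 of widest range among those with 10 CPM in some library are named, except 1 gene that is not reported here, and Smox, Amd2 and single markers of other cell types were added after their values were seen.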

Additional observations from a re-analysis of the deposited data

How the results depend on the processing

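Genes called by limma voom depended on every choice but the background subtraction and, where it could be run, the fit of only the compared libraries; for MNK-3 over ILC2 the filter did not matter by over 1.5 times either. For ILC2 over NK, against 328, there were 0 with trimmed means of M values, 0 with median-of-ratios factors, 44 with factors from abundant genes, 1058 after thinning all libraries to the smallest total, 183 without the filter on low counts and 2030 by limma trend. In the same order MNK-3 over NK, against 590, gave 124, 96, 90, 1585, 389 and 3058, and MNK-3 over ILC2, against 828, gave 75, 52, 249 and 1253, then 2247 by limma trend. Members called were 2 after thinning and 3 by limma trend for ILC2 over NK, and 3 and 4 for MNK-3 over NK, against 0. For MNK-3 over ILC2, Srm was lost, leaving 0, with the 3 other scalings and without the filter. The cause of these shifts was not tested.

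Signs turned in contrasts that passed in none of the fits. Thinning gave a limma voom log2 fold of -0.0085 for Sms in ILC2 over NK, and of -0.40 for Arg1 and 0.050 for Arg2 in MNK-3 over NK. Median-of-ratios factors gave -0.21 for Odc1 and -0.14 for Amd1 in MNK-3 over ILC2. Without MNK-3 replicate 1 or 2, the log2 ratio of Arg1 in MNK-3 over NK ran from -1.33 to 2.09, 3 to 4 members were higher there by 2-fold or more, and the member median was 0.54 to 0.92 there and 0.087 to 0.36 in MNK-3 over ILC2. Median-of-ratios factors left 0 members higher by 2-fold or more in MNK-3 over NK, with a member median of 0.41, and -0.18 in MNK-3 over ILC2, where trimmed means gave 0.040. Trimmed means moved the median of all genes to -0.05, 0.68 and 0.77 in the 3 comparisons. Without an MNK-3 library the model has no residual degree of freedom, so those are values without a test. Arg2 rests on 2 to 88 reads per library. Of 243 member log2 ratios under an alternative, 202 moved by less than the spread. That spread was the SD of the 2 single-library ratios where MNK-3 was compared, and came from the counting interval for ILC2 over NK. It is wide where the MNK-3 libraries lie apart, as for Arg1, so the count does not show that the ratios are stable. No paired analysis was possible because the NK and ILC2 groups have 1 library each.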
